A study of Mus musculus with 9 samples.

Results

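The comparison described here set osteoblastic cells given 1 Gy of alpha particles, the higher dose of the study, against cells given 0 Gy. It holds 6 of the 9 arrays of the series, chosen by sample title: 3 arrays of 1 Gy and 3 of 0 Gy, numbered 1 to 3 at each dose. All cells started as bone marrow from C57BL/6 males aged 8 weeks, were cultured for 7 days, and then spent 7 days in osteogenic medium with β-glycerophosphate, an ascorbic acid phosphate and dexamethasone. The 1 Gy cells received their dose at 0.22 Gy per minute, no genetic change is named for either group, and the sources used here do not give the time between irradiation and RNA extraction. The remaining arrays, of 0.5 Gy, entered the estimate of the spread between arrays, the scaling, the lower limit set on values and the choice of miRNAs tested. Whether the 3 samples of 1 dose were separate animals or cultures is stated nowhere in the labels, and the p-values therefore cover only how these samples vary, and that variation may be technical. A culture grown out of whole marrow can also hold cells other than osteoblasts, and in such bulk RNA fewer cells of a type and less RNA per cell cannot be told apart.

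A miRNA is a short RNA that guides a silencing complex to messenger RNAs. Pairing runs mainly through its seed, bases 2 to 8 from the 5′ end, so miRNAs that share a seed can share targets. In osteoblasts, miRNAs are known to act on both sides of differentiation: miR-2861 and miR-3960 come from 1 cluster and promote it, while miR-125b-5p and miR-214-3p restrain it. Alpha particles leave dense tracks of ionisation and cause clustered DNA breaks, and the p53 response to such breaks is known to raise miR-34a.

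The mature sequences below, from RefSeq with its GRCm38.p6 table, are those of the miRNAs on which the comparison turns, with the seed in capitals. The first set holds miRNAs with higher signal at 1 Gy, among them the miR-3473 family, in which miR-3473a, miR-3473b and miR-3473e carry overlapping letters.
miR-3473b: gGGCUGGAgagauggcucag
miR-3473e: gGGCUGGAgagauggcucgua
miR-3473a: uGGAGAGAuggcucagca
miR-3473g: cAAAAGUGaggcuggggaga
miR-3963: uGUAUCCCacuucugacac
miR-6366: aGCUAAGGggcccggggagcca
miR-690: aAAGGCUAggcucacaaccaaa
The next set holds the let-7 and miR-125 members tested, shown to set their shared seeds side by side.
let-7a-5p: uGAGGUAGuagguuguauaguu
let-7b-5p: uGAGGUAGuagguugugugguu
let-7c-5p: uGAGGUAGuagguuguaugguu
miR-125a-5p: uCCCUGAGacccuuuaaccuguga
miR-125b-5p: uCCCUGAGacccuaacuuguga
The last set holds miRNAs of the bone lists and of the Dlk1-Dio3 cluster whose arrays are described in full.
miR-214-3p: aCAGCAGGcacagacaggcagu
miR-2861: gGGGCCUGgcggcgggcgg
miR-370-3p: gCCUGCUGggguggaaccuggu
miR-494-3p: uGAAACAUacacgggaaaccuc
miR-3473b and miR-3473e share their first 18 bases, and miR-3473b and miR-3473a share a run of 16 bases that starts later in miR-3473b. let-7a-5p and let-7c-5p differ at 1 base, and let-7a-5p and let-7b-5p at 2. How far the probes separate such close relatives was not tested. RefSeq sequences were found for 117 of the 134 miRNAs tested, and miR-3960 was among the 17 without one.

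Signal was read on 1-colour arrays that carry probes for 1881 mouse miRNAs, and values are given as log2 of the scaled signal. A floor of 3.52 was set under them, below which levels cannot be ordered. Detection of a miRNA meant that 50% or more of the spots of any 1 of its probes stood well above background. The number detected was 234, 157 and 185 on arrays 1 to 3 of 0 Gy, against 144, 223 and 178 for 1 Gy. Array 1 of 1 Gy had a high background: the additive error given by the scanner software was 11.2 units on it, against 1.65 to 2.83 units on the other 5 arrays, and no miRNA with a value under 6.09 was detected there. Array 1 of 0.5 Gy, which entered the estimate of the spread, had an additive error of 19.4 units. On it 104 of the 134 miRNAs tested were undetected. Array 1 of 0 Gy stood apart in another way, since miR-494-3p alone made up 54.7% of its summed detected signal, against 4.27% to 7.59% on the other 5. Array 1 of 1 Gy and array 1 of 0 Gy both go with results below, many of which are also given without 1 or the other. The 2 arrays lie on the same slide, which also holds array 3 of both doses, while array 2 of 0 Gy and array 2 of 1 Gy lie on separate slides.

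The signal of miR-6366, miR-3473b and miR-3963 was higher on every array of 1 Gy than on any array of 0 Gy, with fitted differences of 3.001-fold to 4.004-fold. The let-7 and miR-125 members tested had higher means at 1 Gy, with overlapping arrays. The osteoblast-promoting miRNAs miR-3960 and miR-2861 had lower means, as did 74.6% of the 134 tested, whose median difference was -0.49. None of these differences passed the adjusted threshold. Of the 134 miRNAs tested, 0% passed an adjusted p of 0.05 in limma, and the smallest adjusted p was 0.54. At an unadjusted p under 0.05, limma gave 3 higher (2.24%), which were miR-3473b, miR-3963 and miR-6366, and 1 lower (0.746%), which was miR-370-3p. Over all 134, 16 were more than 2-fold higher (11.9%) and 27 more than 2-fold lower (20.1%). Single arrays changed the number at an unadjusted p under 0.05: from 4 it became 6 if array 1 of 1 Gy was left out, 17 if array 3 of 0 Gy was, 7 if array 2 of 1 Gy was and 2 if array 3 of 1 Gy was. No fit that left out a single array called any miRNA after adjustment. A fit of only the 6 arrays of 0 and 1 Gy, on the same scaled values, called 0 as well, with 4 at an unadjusted p under 0.05. With the slide added to the limma model as a block, 4 had an unadjusted p under 0.05, 0 of them higher and 4 lower. The 3 higher miRNAs named above were thus not among them.

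The test set itself was uneven between the doses. A miRNA entered by detection on every array of 0, 0.5 or 1 Gy, and 95 of the 134 passed through 0 Gy and not 1 Gy, 38 were detected on all 6 arrays, and miR-149-5p alone passed through 1 Gy and not 0 Gy. The median difference over all 134, 1 Gy minus 0 Gy, was -0.49, with 100 below 0 (74.6%) and 34 above (25.4%). Among the 38 detected on all 6 arrays it was 0.09, with 18 below 0 and 20 above. Of the 95 that passed through 0 Gy, 55 sat at the floor on array 1 of 1 Gy, 1 on array 2 and 14 on array 3, and 69 were undetected on array 1 alone. Those 95 had a median of -0.63, which was -0.41 without array 1 of 1 Gy. The part of that background in the downward balance of the whole set was not tested beyond these values, and the values on each array are given for that reason.

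The median moved with the scaling and the background correction. Over the 134, the median difference was -1.08 when arrays were scaled on the 75th percentile over all probes, with 89.6% below 0. It was -0.57 after quantile normalization (82.1% below 0), -0.72 with no scaling (79.1%) and -0.95 from the scanner software's own gene totals (81.3%). With normexp background correction it turned to 0.11, with 34.3% below 0. That setting used the median spot intensity and an offset of 50, so the signal entering it also differed from the processed signal used elsewhere. Where one of these settings turned the sign of a group below, this is said beside it.

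The miR-3473 family had higher means at 1 Gy in each of its tested members. Its 7 members on the array include 6 detected on at least 1 of the 6 arrays and 4 that were tested. The mature letters of miR-3473b also resemble the opening of the mouse B2 repeat, a short interspersed element with many genomic copies. miR-3473b read 10.20, 9.50 and 10.14 on arrays 1 to 3 of 0 Gy and 10.64, 13.00 and 12.14 on those of 1 Gy. The doses did not overlap, with array 1 of 1 Gy only slightly above the controls and arrays 2 and 3 far above. Its mean was 11.93 ± 1.19 (SD, n = 3) at 1 Gy against 9.95 ± 0.39 (SD, n = 3) at 0 Gy, a difference of 1.98 (SE 0.65) with an adjusted p of 0.54 in limma. Leaving out array 1 of 1 Gy raised the difference to 2.63 (limma adjusted p = 0.19, with a range of 0.088 to 0.94 over all alternatives), and within the slide that holds arrays 1 and 3 of both doses it was 1.22. As a share of the summed detected signal, miR-3473b held 0.990%, 2.53% and 3.61% on the control arrays and 3.63%, 17.1% and 13.3% on the irradiated ones.

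miR-3473a, which overlaps miR-3473b in sequence, read 6.47, 6.17 and 6.23 at 0 Gy and 6.09, 9.60 and 8.07 at 1 Gy. Array 1 of 1 Gy lay below all 3 controls, so the doses overlapped, while arrays 2 and 3 lay well above them. The difference of 1.63 (SE 0.90) became 2.55 without that array. miR-3473e, which shares its seed with miR-3473b, was close to the floor at 0 Gy (3.70, 3.52 and 3.52) and read 3.52, 5.68 and 4.01 at 1 Gy. Again array 1 of 1 Gy was no higher than the controls and array 2 was the highest of the 6. miR-3473g, whose seed differs from those of the others, read 8.64, 6.97 and 7.85 at 0 Gy and 7.33, 9.10 and 7.80 at 1 Gy, and the doses overlapped widely. All 4 differences were above 0 (median 1.23, beside -0.49 for all 134), though that of miR-3473g turned below 0 when arrays were scaled on all probes (-0.98), quantile-normalized (-0.29), left unscaled (-0.0070) or compared within the slide (-0.68). The median of the 4 was 1.91 without array 1 of 1 Gy, 0.57 with scaling on all probes, 0.54 after quantile normalization and 0.44 within the slide, where miR-3473a differed by 0.73 and miR-3473e by 0.16. The tested members were detected on all 3 control arrays, and miR-3473e was undetected on array 1 of 1 Gy.

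miR-3963 and miR-6366, of which little is known, showed the same arrangement of arrays. miR-3963 read 9.29, 8.36 and 9.13 at 0 Gy and 9.74, 12.12 and 10.93 at 1 Gy. The doses did not overlap, and array 1 of 1 Gy was again the nearest to the controls. Its difference was 2.00 (SE 0.67, limma adjusted p = 0.54), or 2.60 without array 1 of 1 Gy and 1.12 within the slide. miR-6366 read 8.53, 9.54 and 10.07 at 0 Gy and 10.48, 11.16 and 11.25 at 1 Gy. Here array 1 of 0 Gy was the lowest of all, and the difference of 1.59 (SE 0.54, limma adjusted p = 0.54) rose to 1.83 when the first 1 Gy array was left out and fell to 1.16 when the first control was. In all, 3 of the 134 had their 1 Gy arrays all above the controls (2.24%), namely these 2 and miR-3473b.

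**Figure D1:**
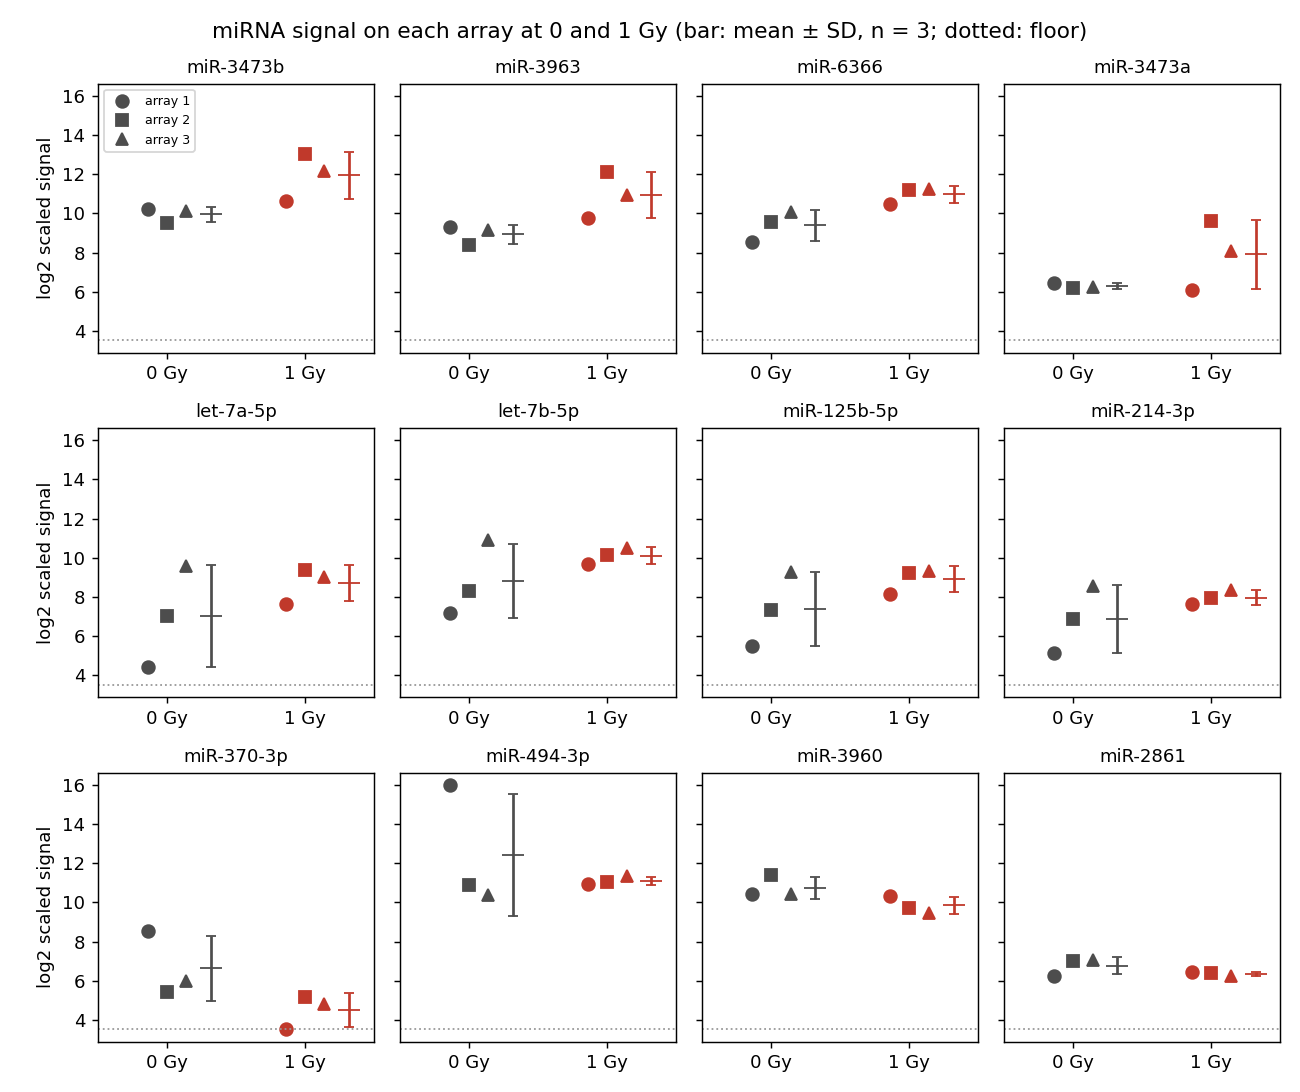
Log2 scaled signal (y axis) of 12 miRNAs on each array of 0 Gy (grey) and 1 Gy (red), with the array number as the marker shape, the mean ± SD of 3 arrays as the bar and the floor of 3.52 as the dotted line. The 1 Gy points of miR-3473b, miR-3963 and miR-6366 all lie above the controls, the let-7a-5p controls run from 4.42 to 9.60, and array 1 of 0 Gy is far above the rest for miR-494-3p.

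The let-7 family, which is known to repress growth genes such as Ras family members and Hmga2, had 9 members on the array, 8 detected on some of the 6 arrays and 3 tested. let-7a-5p read 4.42, 7.05 and 9.60 at 0 Gy and 7.65, 9.40 and 9.02 at 1 Gy. The irradiated arrays lay inside the range of the controls, which itself spanned from the lowest value of the 6 to the highest. Its difference was 1.67 (SE 1.17), which fell to 0.37 without array 1 of 0 Gy and rose to 2.96 without array 3 of 0 Gy. let-7b-5p read 7.19, 8.33 and 10.90 at 0 Gy and 9.66, 10.16 and 10.52 at 1 Gy. let-7c-5p, from the same seed family, read 5.88, 7.64 and 10.40 at 0 Gy and 8.75, 9.80 and 9.90 at 1 Gy. In all 3 the control arrays had the same order, array 1 lowest and array 3 highest, and their SDs of 1.90 to 2.59 (n = 3) were wider than the 0.43 to 0.92 of the irradiated arrays. The median of the 3 differences was 1.51 (all 3 above 0, none at an unadjusted p under 0.05), or 1.88 when the first 1 Gy array was left out, 0.46 when the first control was, and 0.27 with scaling on all probes.

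The miR-125 pair followed the let-7 members across the control arrays. miR-125b-5p, an abundant stromal miRNA that restrains osteoblast differentiation, read 5.51, 7.35 and 9.29 at 0 Gy and 8.18, 9.24 and 9.34 at 1 Gy. miR-125a-5p, which targets the NF-kB inhibitor A20, read 3.63, 4.77 and 6.71 at 0 Gy and 7.11, 6.42 and 6.57 at 1 Gy. In both, arrays 1 and 2 of 0 Gy lay below every irradiated array and array 3 of 0 Gy lay among them. The miR-125b-5p difference of 1.54 (SE 0.84) was 0.61 without array 1 of 0 Gy, and the miR-125a-5p difference of 1.66 (SE 0.76) was 0.96. Without array 1 of 1 Gy they were 1.91 and 1.46. The list of miR-125, miR-99 and miR-10 relatives had 8 members on the array, 4 detected and these 2 tested, with a median of 1.60. Leaving out the first control took that median to 0.78, leaving out the control on array 3 took it to 2.496, and scaling on all probes took it to 0.36. Without array 1 of 1 Gy that median was 1.68. miR-125a-5p was also the one tested member of the 8 on the list for NF-kB and inflammation. On that list miR-146a-5p and miR-155-5p, which are induced by NF-kB, were detected on none of the 6 arrays.

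Among osteoblast-inhibiting miRNAs, 20 were on the array, 8 were detected and 2 were tested, miR-125b-5p and miR-214-3p. miR-214-3p, which represses the osteoblast factor Atf4, read 5.13, 6.89 and 8.58 at 0 Gy and 7.63, 7.93 and 8.36 at 1 Gy. Its irradiated arrays all lay between arrays 2 and 3 of 0 Gy. The difference was 1.11 (SE 0.85, limma adjusted p = 0.54), 0.24 without array 1 of 0 Gy, and -0.13 when arrays were scaled on all probes. The median of the list was 1.33, and 0.08 with that scaling. miR-92a-3p, the one tested of 12 members of the miR-17 clusters, which drive proliferation, read 3.71, 3.84 and 5.49 at 0 Gy and 6.93, 4.82 and 5.62 at 1 Gy. Its highest value was on array 1 of 1 Gy, the array on which it did not stand well above background. The difference of 1.44 (SE 0.86) was 0.87 without array 1 of 1 Gy.

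Osteoblast-promoting miRNAs had lower means at 1 Gy. The list had 11 members on the array, 5 detected and 2 tested, miR-3960 and miR-2861. Both differences were below 0, with a median of -0.64 beside -0.49 for all 134. These 2 medians were -0.79 and -0.33 without array 1 of 1 Gy, and -0.85 and -0.32 without array 1 of 0 Gy. Within the slide they were -0.40 and -0.71. miR-3960, which represses Hoxa2, read 10.42, 11.38 and 10.41 at 0 Gy and 10.34, 9.73 and 9.47 at 1 Gy. The doses did not overlap, but array 1 of 1 Gy was only just below the controls. Its mean was 9.85 ± 0.45 (SD, n = 3) at 1 Gy against 10.73 ± 0.56 (SD, n = 3), a difference of -0.89 (SE 0.46, limma adjusted p = 0.54) that was -1.13 without array 1 of 1 Gy and -0.51 within the slide. miR-2861, which represses the histone deacetylase Hdac5, read 6.25, 6.99 and 7.07 at 0 Gy and 6.46, 6.38 and 6.26 at 1 Gy. Array 1 of 0 Gy was the lowest of the 6, so the doses overlapped, and the difference was -0.40 (SE 0.44). Leaving out array 1 of 0 Gy gave -0.66, and leaving out array 3 of 0 Gy gave -0.25. miR-2861 entered the test through 0 Gy alone, so the shared direction of the pair carries no support from it.

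**Figure D2:**
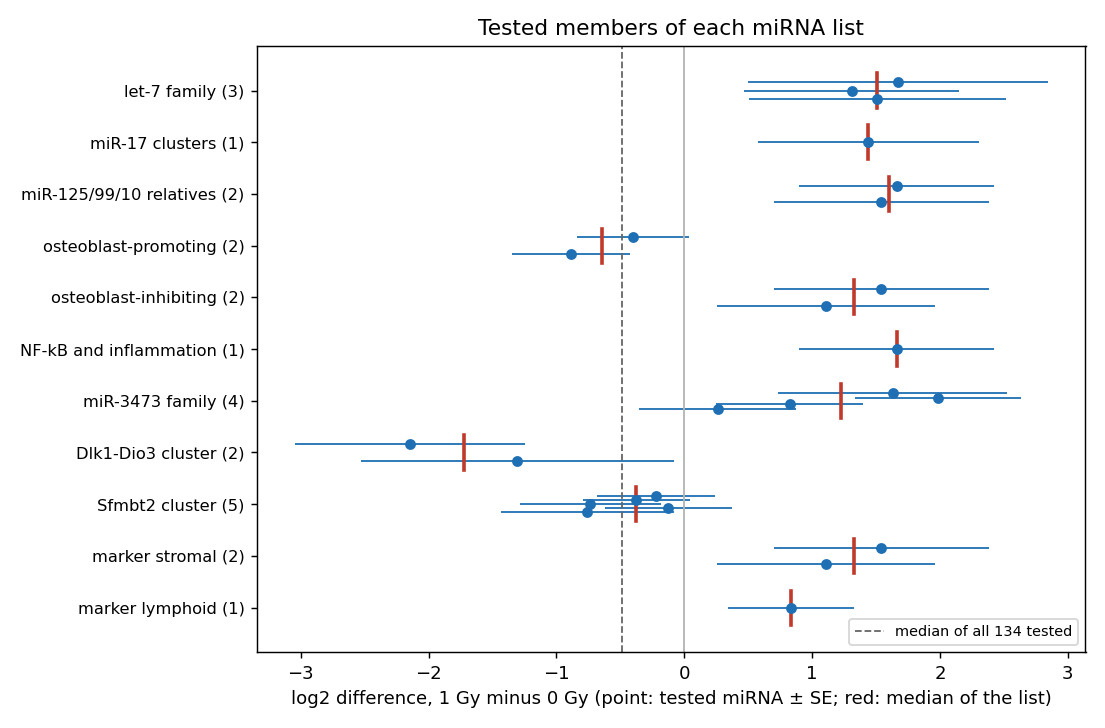
Difference in log2 signal, 1 Gy minus 0 Gy (x axis), of each tested member of the lists on the y axis (number tested in parentheses): points with SE bars are miRNAs, red marks are list medians and the dashed line is the median of all 134 (-0.49). The let-7, miR-125 and miR-3473 members lie above 0, and the members of the osteoblast-promoting list and of both imprinted clusters below.

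Imprinted miRNA clusters filled many places on the array, and few of their members gave signal. The Dlk1-Dio3 cluster, expressed from the maternal chromosome, had 89 members on the array, 5 detected and 2 tested, miR-370-3p and miR-494-3p. miR-370-3p read 8.53, 5.42 and 6.00 at 0 Gy and 3.52, 5.15 and 4.83 at 1 Gy. It entered the test through 0 Gy alone. The doses did not overlap, but array 1 of 0 Gy was far above the rest and array 1 of 1 Gy was at the floor. Its mean was 4.50 ± 0.87 (SD, n = 3) at 1 Gy against 6.65 ± 1.65 (SD, n = 3) at 0 Gy, a difference of -2.14 (SE 0.90, limma adjusted p = 0.54). Leaving out the first 1 Gy array gave -1.65, and leaving out the first control gave -1.20. miR-494-3p read 15.99, 10.86 and 10.38 at 0 Gy and 10.96, 11.02 and 11.34 at 1 Gy. A single control array, the first, was far above the other 5, which were within 1 log2 unit of each other. The difference of -1.31 (SE 1.23) turned to 0.48 without that array, and the median of the pair went from -1.73 to -0.36.

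The Sfmbt2 cluster is a large rodent family that lies mostly in an intron of the imprinted gene Sfmbt2. It had 61 members on the array, 7 detected and 5 tested, all with differences below 0 (median -0.37). Of the 5, only miR-466i-5p was detected on all 6 arrays and the other 4 entered through 0 Gy alone, so their shared direction supports nothing about the cluster. The list median lies above the -0.49 of all 134, and it turned to 0.19 with normexp background correction. Without array 1 of 1 Gy it was -0.53. miR-466i-5p, detected on all 6 arrays, read 9.32, 8.62 and 8.22 at 0 Gy and 8.39, 8.45 and 8.20 at 1 Gy. The doses overlapped, and array 1 of 0 Gy was again the highest. miR-669p-3p read 5.11, 6.06 and 5.88 at 0 Gy and 4.69, 4.93 and 5.15 at 1 Gy, with the highest irradiated array just above the lowest control. The differences were -0.76 (SE 0.68) for miR-669p-3p, -0.73 (SE 0.55) for miR-466q, -0.37 (SE 0.42) for miR-466i-5p and -0.22 (SE 0.46) for miR-466h-3p.

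In all, 10 of the 134 had their 1 Gy arrays all below the controls (7.46%). Of these, 7 entered the test through 0 Gy alone, the dose at which they were higher, so their count supports no direction, and only miR-3960, miR-574-5p and miR-709 passed the filter at both doses. Besides miR-370-3p and miR-3960 these were miR-125a-3p, miR-574-5p, miR-709, miR-3072-5p, miR-3095-3p, miR-6238, miR-149-3p and miR-7221-3p. miR-709, a nuclear miRNA known to hold back the processing of miR-15 and miR-16 precursors, read 10.16, 10.59 and 10.23 at 0 Gy and 10.04, 9.98 and 9.43 at 1 Gy. The gap between the doses was narrow, and the difference was -0.51 (SE 0.40, limma adjusted p = 0.54). miR-574-5p, a miRNA of repeated GU letters, read 8.62, 7.57 and 7.09 at 0 Gy and 6.96, 7.07 and 7.02 at 1 Gy. Its irradiated arrays were nearly identical (SD 0.057, n = 3) and lay just under the lowest control, with a difference of -0.75 (SE 0.50), or -0.32 without array 1 of 0 Gy. miR-125a-3p, from the hairpin that also gives miR-125a-5p, read 5.62, 6.06 and 5.48 at 0 Gy and 4.15, 5.48 and 4.52 at 1 Gy. Its lowest control and highest irradiated array differed by only 0.00019 on the log2 scale, in effect a tie. The strands of that hairpin had differences of opposite sign, 1.66 for the 5p strand and -1.005 (SE 0.46) for the 3p strand, the latter detected on 1 of 3 irradiated arrays. The miR-125a-3p difference was -0.72 without array 1 of 1 Gy and turned to 0.15 with normexp.

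The remaining members of that group were dimmer or touched the floor. miR-3072-5p read 6.24, 6.38 and 6.26 at 0 Gy, the tightest controls of the group, and 4.94, 6.14 and 5.48 at 1 Gy. miR-3095-3p read 5.31, 5.81 and 5.06 at 0 Gy and 3.52, 4.85 and 4.41 at 1 Gy. miR-6238 read 8.36, 4.96 and 4.99 at 0 Gy and 3.52, 4.87 and 4.74 at 1 Gy. In each of these the lowest irradiated array was array 1, and arrays 2 and 3 of both doses lay close together in miR-6238. miR-149-3p and miR-7221-3p were at the floor on arrays 1 and 3 of 1 Gy, and the doses were only 0.0021 apart in miR-149-3p. With normexp the differences of miR-3095-3p (0.03), miR-149-3p (0.05) and miR-7221-3p (0.17) lay above 0.

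Outside that group, 5 further miRNAs were among the 10 lower ones of smallest unadjusted p. All 5 entered the test through 0 Gy alone, the dose at which they were higher, so they support no direction. miR-6385 read 10.05, 5.83 and 5.63 at 0 Gy and 3.52, 5.64 and 5.33 at 1 Gy. miR-135a-1-3p read 9.32, 5.71 and 5.45 at 0 Gy and 3.52, 5.61 and 5.39 at 1 Gy. miR-7011-5p read 8.48, 5.91 and 5.90 at 0 Gy and 3.52, 6.02 and 5.29 at 1 Gy. In these 3 the first control was the highest of the 6 arrays and array 1 of 1 Gy was at the floor, while arrays 2 and 3 of both doses were close together. Their differences of -2.34, -1.99 and -1.82 were -0.90, -0.74 and -0.96 without array 1 of 0 Gy. Of all 134, array 1 of 0 Gy held the highest value of the 6 for 46, and array 1 of 1 Gy held the lowest for 81. miR-7226-5p (-1.32, SE 0.66) and miR-3620-5p (-1.15, SE 0.58) were at the floor on array 1 of 1 Gy as well. In miR-3620-5p the highest control was array 2 (5.63, against 5.28 and 4.61 on arrays 1 and 3), and its difference turned to 0.01 with normexp.

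Without array 1 of 1 Gy, and with the same 134 miRNAs, limma again called 0% at an adjusted p of 0.05, and the smallest adjusted p was 0.19. At an unadjusted p under 0.05 it gave 5 higher (3.73%) and 1 lower (0.746%). The higher ones were miR-3473b (2.63), miR-3963 (2.60), miR-3473a (2.55), miR-690 (2.09) and miR-6366 (1.83), and the lower one was miR-652-5p (-1.45). miR-690 read 5.84, 5.40 and 5.82 at 0 Gy and 5.12, 8.22 and 7.33 at 1 Gy. As in miR-3473a, array 1 of 1 Gy lay under the controls and arrays 2 and 3 above them, but miR-690 was undetected on array 1 of 1 Gy and miR-3473a was detected there. miR-652-5p read 5.34, 6.10 and 5.76 at 0 Gy and 5.73, 5.03 and 3.52 at 1 Gy. It was undetected on arrays 1 and 3 of 1 Gy and at the floor on array 3. Because it entered the test through 0 Gy alone, the dose at which it was higher, it supports no direction. The median of the 134 went from -0.49 to -0.33, and those above 0 from 34 to 44 (32.8%, with 67.2% below 0). When scaling, floor and filter were also computed again without that array, 171 miRNAs were tested, 0% were called by limma, the smallest adjusted p was 0.28, and the same 6 miRNAs had an unadjusted p under 0.05 (2.92% higher and 0.585% lower). The median of those 171 was -0.064, with 80 above 0 and 91 below. The miRNAs added to the 134 all passed through 1 Gy and all had differences above 0. The shift in the median therefore does not describe the 134 themselves, of which 67.2% stayed below 0 without that array. With array 1 of both doses left out and scaling, floor and filter computed again, the median was 0.035 over 173 miRNAs, with 90 above 0 and 83 below.

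**Figure D3:**
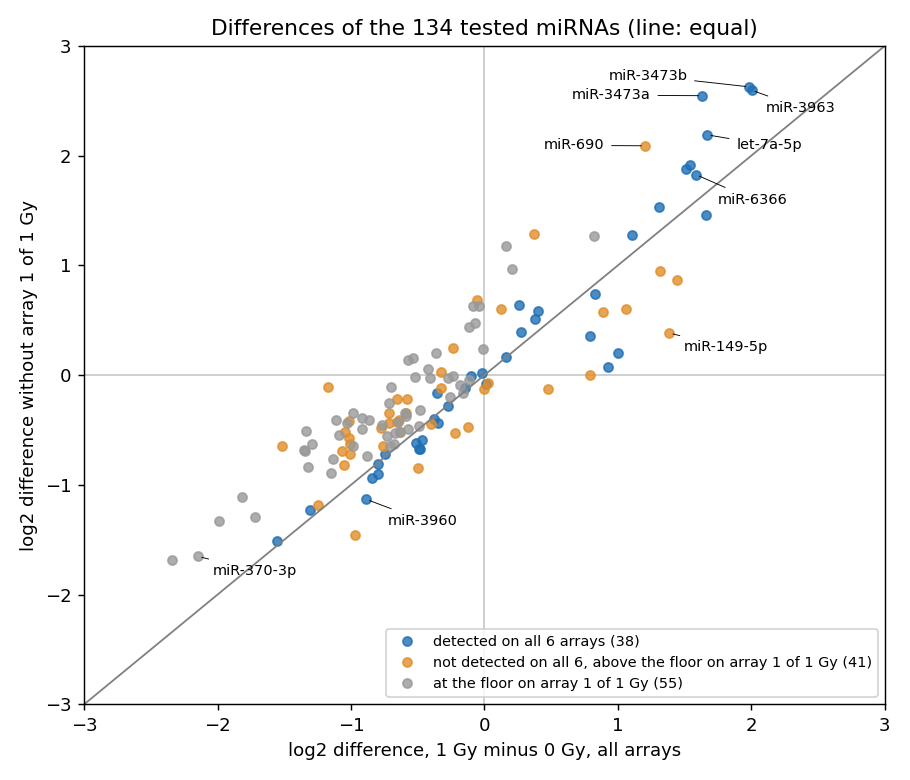
Difference in log2 signal, 1 Gy minus 0 Gy, of the 134 tested miRNAs with all arrays (x axis) and without array 1 of 1 Gy (y axis), coloured by where they were measured, with the line of equal values. The 55 grey points at the floor on that array lie mostly above the line, and miR-3473a and miR-690 stand further from it than miR-6366.

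Across the 38 miRNAs detected on all 6 arrays, arrays of 1 dose were not always the nearest to each other. Arrays 2 and 3 of 1 Gy correlated at 0.96 across these miRNAs and array 3 of 0 Gy with array 3 of 1 Gy at 0.91, while arrays 1 and 3 of 0 Gy correlated at 0.53. These are descriptions across miRNAs, which are not independent replicates and share each array's labelling and scan. miR-1224-5p, spliced from an intron of Vwa5b2, read 13.20, 11.14 and 11.19 at 0 Gy and 11.27, 10.99 and 10.89 at 1 Gy. miR-8117 read 12.46 on array 1 of 0 Gy and 9.93 to 10.34 on the remaining 5. In both the first control stood alone, and their differences of -0.79 and -0.85 were -0.12 and -0.08 without it. miR-5126 read 10.34, 10.80 and 10.94 at 0 Gy and 10.90, 10.70 and 10.52 at 1 Gy, a difference of 0.01 with a 95% interval from -0.85 to 0.88. miR-8110 differed by -0.35 (interval -1.25 to 0.56) and miR-7005-5p by 0.40 (interval -1.37 to 2.18), so changes up to about those bounds could not be told from the spread.

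Some of the miRNAs tested were set apart by array 1 of 1 Gy alone. miR-296-5p, an imprinted miRNA of the Gnas region, read 4.84, 4.43 and 4.78 at 0 Gy and 7.28, 4.53 and 5.25 at 1 Gy. miR-1249-3p read 5.00, 4.35 and 4.42 at 0 Gy and 7.21, 4.38 and 4.94 at 1 Gy. miR-149-5p, the one miRNA that passed the filter through 1 Gy and not 0 Gy, read 3.64, 3.52 and 4.002 at 0 Gy and 7.11, 3.59 and 4.62 at 1 Gy. Each was highest on the array with the high background and near the controls on array 2. Their differences of 1.00, 0.92 and 1.39 were 0.20, 0.07 and 0.38 without it.

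**Figure D4:**
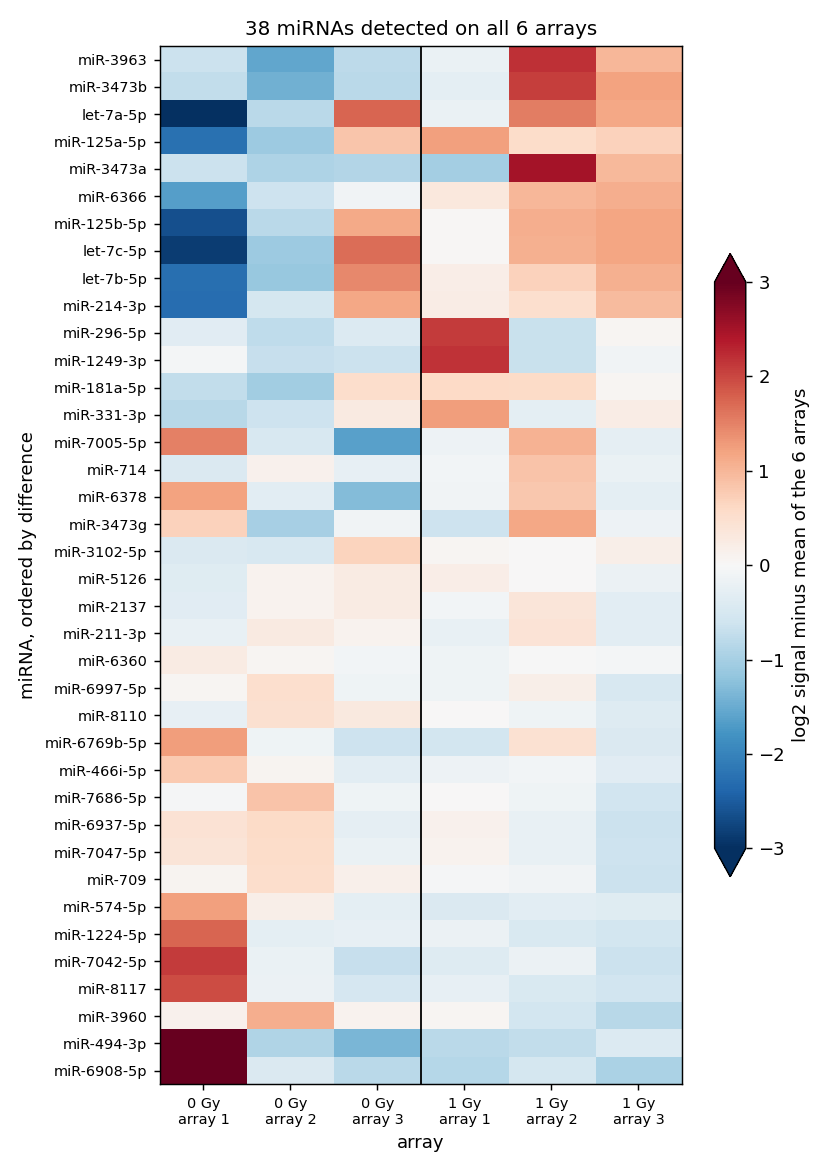
Log2 signal minus the mean of the 6 arrays (colour, blue lower and red higher) for the 38 miRNAs detected on all 6 arrays, ordered by their difference between 1 and 0 Gy. Array 1 of 0 Gy is dark blue for the let-7 and miR-125 members and dark red for miR-494-3p and miR-6908-5p, and arrays 2 and 3 of 1 Gy are red for miR-3963 and miR-3473b.

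Leaving out array 1 of 1 Gy let 37 further miRNAs into the test, all of them through arrays 2 and 3 of 1 Gy, so their differences are given as values and carry no support for a direction. Of the 37, 31 were at the floor on array 1 of 0 Gy, 34 were detected on array 3 of 0 Gy, and none on array 1 of 1 Gy. miR-34a-5p, the miRNA most directly induced by p53, read 3.52, 4.31 and 6.76 at 0 Gy and 5.30, 6.20 and 6.47 at 1 Gy. The control array 3 was above every irradiated array. miR-15b-5p, which slows the cell cycle, read 3.52, 5.41 and 7.79 at 0 Gy and 5.83, 7.39 and 7.39 at 1 Gy. miR-24-3p, known to target the histone H2AX gene, read 3.52, 4.40 and 6.57 at 0 Gy and 3.52, 6.19 and 6.28 at 1 Gy. Both had the same order of controls as let-7a-5p, with array 3 of 0 Gy the highest of the 6.

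The same outline ran through other miRNAs that entered this way. let-7d-5p read 3.52, 4.36 and 7.47 at 0 Gy and 3.66, 6.93 and 6.74 at 1 Gy. miR-23a-3p, a repressor of Runx2, read 3.52, 5.01 and 6.88 at 0 Gy and 5.34, 7.20 and 6.68 at 1 Gy. miR-29a-3p, which targets collagen messages, read 3.52, 3.80 and 6.51 at 0 Gy and 4.63, 6.24 and 6.10 at 1 Gy. In each, array 3 of 0 Gy lay with arrays 2 and 3 of 1 Gy, and array 1 of 0 Gy at the floor. miR-21a-5p, a miRNA often raised by stress, read 3.52, 3.52 and 4.95 at 0 Gy and 3.52, 5.74 and 4.65 at 1 Gy. A few went against the outline: miR-3472 (6.53, 4.19 and 3.52 at 0 Gy, and 3.52, 6.07 and 4.19 at 1 Gy), miR-7219-5p and miR-202-3p were highest or second on array 1 of 0 Gy.

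**Figure D5:**
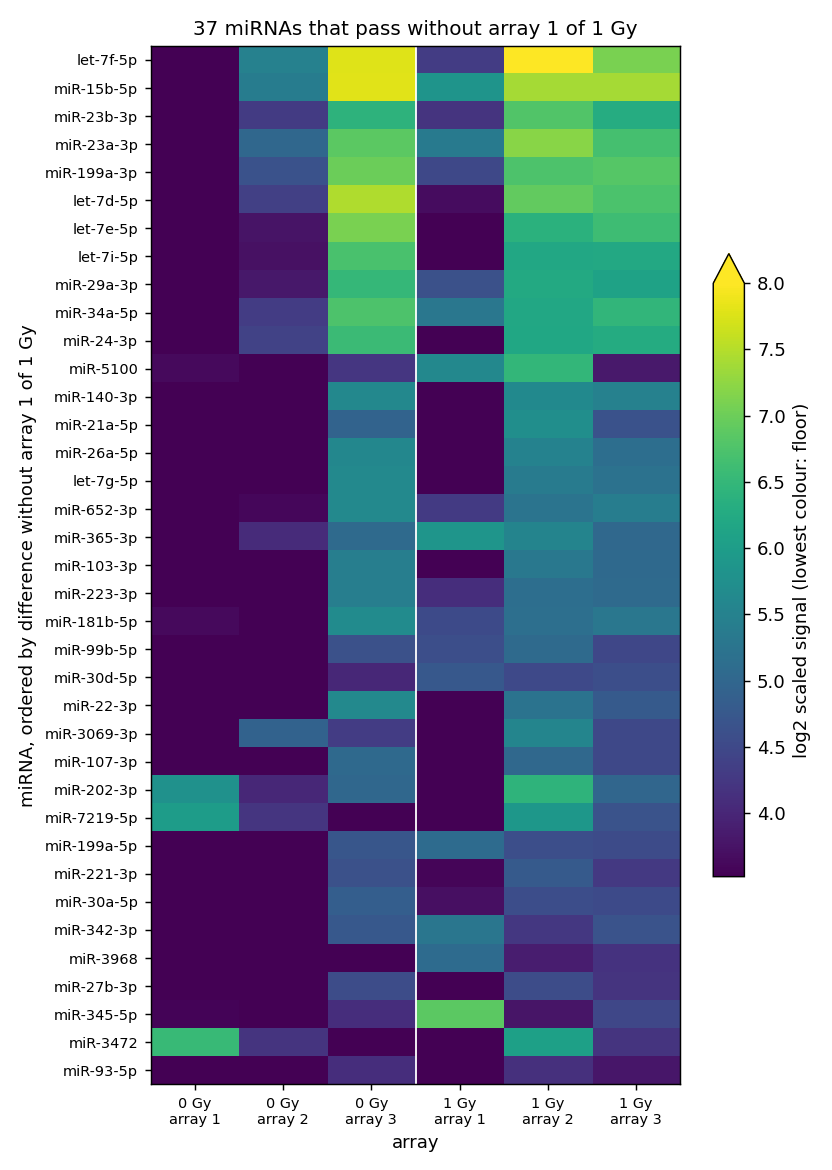
Log2 scaled signal (colour, darkest at the floor of 3.52) on each of the 6 arrays for the 37 miRNAs that entered the test when array 1 of 1 Gy was left out. Array 1 of 0 Gy is at the floor for 31 of them, and array 3 of 0 Gy and arrays 2 and 3 of 1 Gy carry most of the signal.

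Lists tied to the radiation response could be described by detection only. Of the 13 p53-responsive miRNAs on the array, 3 were detected on some of the 6 arrays (miR-34a-5p, miR-107-3p and miR-16-5p) and none was tested with all arrays. miR-24-3p was the one detected of 12 miRNAs that target DNA repair genes. Of the miR-15/16 family, 3 of 6 were detected and none tested, and of the miR-23, miR-27 and miR-24 clusters 5 of 5 were detected and none tested. The bone matrix list of miR-29 and miR-26 had 3 of 5 detected and none tested. A level below detection on these arrays gives no direction for the other members.

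Marker miRNAs of other cell types were few. Erythroid and platelet, endothelial, muscle, epithelial, liver and neuronal markers, among them miR-451a, miR-126a-3p, miR-133a-3p, miR-200c-3p, miR-122-5p and miR-124-3p, were detected on none of the 6 arrays. Of 4 myeloid markers, miR-223-3p and miR-342-3p were detected, on array 3 of 0 Gy and arrays 2 and 3 of 1 Gy, and miR-142a-3p and miR-142a-5p on none. Of 3 lymphoid markers, miR-181a-5p was tested and read 6.37, 6.06 and 7.63 at 0 Gy and 7.71, 7.68 and 7.17 at 1 Gy. Its difference of 0.83 (SE 0.49) turned to -0.41 when arrays were scaled on all probes. miR-181b-5p was detected on arrays 1 and 3 of 0 Gy and arrays 2 and 3 of 1 Gy, and miR-150-5p on no array. The chondrocyte miRNA miR-140-3p was detected on array 3 of 0 Gy and arrays 2 and 3 of 1 Gy, and miR-140-5p on none of the 6. Of 9 markers of stromal cells, the lineage that gives osteoblasts, miR-125b-5p and miR-214-3p were detected on all 6 arrays, miR-199a-3p and miR-199a-5p on some, and the other 5 on none.

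The summed log2 level of the 9 stromal markers was 7.33, 8.55 and 10.25 on arrays 1 to 3 of 0 Gy and 9.31, 10.02 and 10.19 on those of 1 Gy. Of the 9, 2, 3 and 4 were detected on the arrays of 0 Gy and 2, 4 and 4 on those of 1 Gy. The sum includes the undetected markers and would be 6.69 with all 9 at the floor. It moved across the arrays as let-7a-5p, let-7c-5p and miR-34a-5p did, lowest on array 1 of 0 Gy and highest on array 3 of 0 Gy. The part of this in the differences of those miRNAs was not tested. The median of the 2 tested stromal markers, which are also the 2 tested osteoblast-inhibiting miRNAs, was 1.33 with all arrays and 0.42 without array 1 of 0 Gy.

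Detection alone separated no miRNA fully between the doses: none was seen on every array of one dose and undetected on every array of the other. Of the 365 miRNAs detected on some of the 6 arrays, 6 were detected on 2 irradiated arrays and no control. These were miR-18b-3p, miR-3547-3p, miR-3968, miR-6999-3p, miR-7063-3p and miR-8114. miR-18b-3p, for instance, read 3.56, 3.52 and 3.52 at 0 Gy and 7.21, 3.52 and 4.37 at 1 Gy. All of these 6 miRNAs but miR-3968 were at the floor on array 2 of 1 Gy and detected on array 1, which had the high background. On array 1 of 0.5 Gy, with its larger additive error, miR-18b-3p read 8.43. In the other direction, 2 of the 365, miR-6934-5p and miR-712-5p, were detected on 2 controls and on no irradiated array. miR-712-5p read 6.62, 4.66 and 4.20 at 0 Gy and 3.52, 4.04 and 3.52 at 1 Gy, where it was not well above background.

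The seed families with 2 or more tested members numbered 4: let-7a, let-7b and let-7c in their 5p forms (GAGGUAG), miR-125a-5p and miR-125b-5p (CCCUGAG), miR-3473b and miR-3473e (GGCUGGA), and miR-3547-5p and miR-6368 (UGGGAAG). miR-6368 read 5.36, 5.30 and 5.53 at 0 Gy and 3.52, 7.19 and 5.96 at 1 Gy, and miR-3547-5p read 4.57, 5.39 and 4.56 against 3.52, 6.65 and 4.97. Both were at the floor on array 1 of 1 Gy and highest on array 2, as miR-3473e was. Their differences of 0.16 and 0.21 were 1.18 and 0.97 without array 1 of 1 Gy, and below 0 within the slide (-0.70 and -0.32). Across the 117 tested miRNAs with a sequence, the share of G in the sequence and the difference correlated at -0.40 (Pearson) and -0.26 (Spearman). These were -0.24 and -0.16 without array 1 of 1 Gy, and -0.43 and -0.30 without array 1 of 0 Gy. Over the 31 of them detected on all 6 arrays they were -0.37 and -0.38. These are descriptions over miRNAs that share arrays, probes and base composition.

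The remaining named miRNA of the higher group, miR-193b-3p, read 3.91, 4.09 and 6.05 at 0 Gy and 6.73, 5.37 and 5.90 at 1 Gy. The doses overlapped, its highest value lay on array 1 of 1 Gy where it was undetected, and the difference of 1.32 (SE 0.77) was 0.95 without that array. miR-92a-3p had the same outline, and neither passed the threshold of limma after adjustment (adjusted p = 0.54 for each).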

How the data were processed

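RNA of 9 samples was labelled with Cy3 and read on 1-colour Agilent mouse miRNA arrays. The deposited spot intensity values were made with Agilent Feature Extraction 11.5.1.1, which detrended and background-subtracted them without any normalization across arrays, per the file headers. The deposited 0 or 1 marks give outlier spots and spots well above background. A deposited whole-series table was not used, because its 9 columns of values match no sample title. The headers name another mouse build than the RefSeq tables, so no coordinates are given.

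A probe's value was the mean of its spots without outliers, and a miRNA's the sum of its probes. Arrays were scaled on the 75th percentile of the 45 probes detected on all 9 arrays, floored at 11.5 units and taken to log2. All 9 arrays entered 1 linear model (lmFit and eBayes, limma 3.58.1, R 4.3.3), whose two-sided p-values for 1 against 0 Gy were adjusted by Benjamini-Hochberg over all miRNAs tested. The fit was tested on simulated data. Array number and signal over background limit the precision. The comparison, the lists and the tests were chosen with earlier results of these data known. Named were the 10 higher and 10 lower miRNAs of smallest unadjusted p, those whose arrays did not overlap between doses, up to 4 tested members of each list, the 10 of highest mean signal and members of shared seed families. miR-690, miR-652-5p, miR-149-5p, miR-296-5p, miR-1249-3p, the miRNAs entering without array 1 of 1 Gy, and those differing in detection on 2 arrays were chosen after their values were seen. Alternatives changed scaling, background correction, filter, floor, blocks and the arrays used.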

Additional observations from a re-analysis of the deposited data

How the results depend on the processing

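No miRNA was called in any of the alternatives run, so none gained or lost an adjusted call. The number at an unadjusted p under 0.05, 4 in the report, was 0 with scaling on all probes, 2 with no scaling, 1 within the slide, 7 with the replicate block, 31 with array weights and 2 without array 1 of 0 Gy when scaling and filter were computed again. Leaving out 1 array gave 2 to 17. Arrays did not overlap for 13 of the 134 in the report. Over the same 134 this number was 1 with scaling on all probes and 33 after quantile normalization. The scanner software's gene totals gave 41, and the arrays within the slide gave 77. For miRNAs detected on all 9 arrays it was 5 of 28. Leaving out array 1 of 1 Gy, with scaling and filter again, gave 25 of 171. Leaving out that of 0 Gy in the same way gave 26 of 147, and leaving out both gave 45 of 173. Without 1 array it was 15 to 71 of the 134. Fewer arrays overlap less often. The median difference was 0.14 for miRNAs detected on all 9 arrays, 0.45 with no filter and -0.78 to -0.32 without 1 array. Array weights, the median of spots and the fits with scaling and filter again without array 1 of 0 Gy were added after the data were seen. Same-numbered arrays correlated at -0.13, -0.03 and 0.16 in their deviations over the 134 miRNAs, and at 0.13, -0.05 and 0.58 over the 38 detected on all 6 arrays. Whether the replicate numbers pair the samples cannot be decided from these values, because the miRNAs share arrays and are not independent.

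Single miRNAs that changed direction, and were called under no setting, did so as follows, and the cause was not tested. With scaling on all probes, miR-181a-5p and with it the lymphoid median was -0.41, miR-214-3p -0.13, miR-3473g -0.98, miR-5126 -1.23, miR-7005-5p -0.84, miR-3547-5p -0.11 and miR-6368 -0.15. Quantile normalization gave miR-3473g -0.29 and miR-5126 -0.070, and no scaling gave miR-3473g -0.0070, miR-5126 -0.25 and miR-6368 -0.0078. Normexp gave the Sfmbt2 median and miR-466h-3p 0.19, miR-125a-3p 0.15, miR-3620-5p 0.013, miR-3095-3p 0.025, miR-149-3p 0.049, miR-7221-3p 0.17, miR-466q 0.19 and miR-669p-3p 0.18. The scanner software's totals gave miR-5126 -0.15, miR-3547-5p -0.20 and miR-6368 -0.26. The slide as a block gave miR-3473g -0.50, miR-466h-3p 0.17, miR-7005-5p -0.015, miR-3547-5p -0.058 and miR-6368 -0.45, and within the slide they were -0.68, 0.19, -0.16, -0.32 and -0.70. With scaling and filter again, leaving out array 1 of 1 Gy gave miR-5126 -0.096, leaving out that of 0 Gy gave miR-5126 -0.16 and miR-494-3p 0.48, and leaving out both gave -0.30 and 0.52. Array weights gave miR-5126 -0.18 and miR-3547-5p -0.057. Leaving out single arrays gave ranges that crossed 0 for miR-494-3p (-2.32 to 0.48), miR-5126 (-0.16 to 0.14), miR-3473g (-0.25 to 0.67), miR-7005-5p (-0.32 to 1.26), miR-466h-3p (-0.53 to 0.030), miR-3547-5p (-0.60 to 0.97) and miR-6368 (-0.66 to 1.18).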
